A study of Mus musculus with 2 samples.

Results

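Neuroectoderm markers are genes that are switched on when embryonic cells take a neural fate, and the 9 genes described here mark neural precursors (Nes, Vim, Sox1, Pax6, Fabp7, Hes5, Olig2) and young neurons (Tubb3, Dcx). They were chosen by name as markers of the fate to which the labels refer (mESC to NPC, neuronal precursor cell), and all 9 were found among the 22556 genes of the count table. Polyadenylated RNA was sequenced from 1 group of 2 replicates of uninduced iXist-ChrX-Dom cells, female XX mouse embryonic stem cells (mESCs) from a cross of Mus musculus domesticus (129S) with castaneus. A TetOn promoter stands in place of the endogenous Xist promoter on the domesticus allele, no doxycycline was given (0 h), and both libraries come from this 1 line. The cells were kept in serum with LIF on mitomycin C-treated fibroblast feeders, which were removed by pre-plating. Differentiated samples were not analysed here, so the levels below are those before differentiation and there is no comparison between conditions. The labels do not say that the replicates are separate cultures, so their spread may be technical.

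Neural fate is one path that mESCs can take when signals that hold them in pluripotency are withdrawn. Sox1 is among the first transcription factors of the neural plate, and Pax6 and Olig2 are transcription factors that give precursors a position along the neural tube. Nestin (Nes) and vimentin (Vim) are intermediate filament proteins of dividing precursors, Hes5 is a repressor that Notch signalling turns on in them, and Fabp7 is a fatty acid binding protein of radial glia. Beta-III tubulin (Tubb3) and doublecortin (Dcx) belong to the microtubules of postmitotic neurons.

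Of the 9 markers, 3 reached a mean of 1 TPM (transcripts per 1000000, from counts per kb of gene scaled to the same sum in each library), against 52.7% of all genes, and these were Vim, Nes and Tubb3. Vim alone supplied 90.5% of the counts of the 9 genes in replicate 1 and 93.0% in replicate 2. The 9 genes together held 126 CPM (counts per 1000000) in replicate 1 and 128 in replicate 2, with 95% Wilson intervals of 122 to 131 and of 123 to 133. Their median was 0.538 TPM, beside 1.35 TPM over all genes. This median is the value of Hes5, which rests on 1 count per replicate (95% Poisson intervals 0.0118 to 2.59 and 0.0155 to 3.40 TPM). In it and in all counts over the 9 genes Sox1 stands at 0, although its 0 counts are uninformative because it lies wholly inside another gene on the same strand. With the gene span as length, as in the deposited table, introns are part of the length. Fragments were counted over the whole span, so exonic-length values still include any fragments from introns. With exonic length, the same 3 genes passed 1 TPM (55.3% of all genes did), and the median of the 9 was 0.117 TPM beside 1.85 TPM over all genes. Without a length, 4 of the 9 reached 1 CPM, as did 53.3% of all genes, and the additional gene was Pax6. At a threshold of 5 TPM (span length) 2 of the 9 passed, beside 37.1% of all genes, and at 0.1 TPM 6 passed, beside 69.0%, but for Hes5 and Fabp7 0.1 TPM is less than 1 count. Fewer than 10 counts in total were found for 5 of the 9, namely Hes5, Fabp7, Dcx, Sox1 and Olig2, against 35.6% of all genes. In bulk RNA, few cells with much of a transcript and many cells with little of it cannot be told apart.

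**Figure D1:**
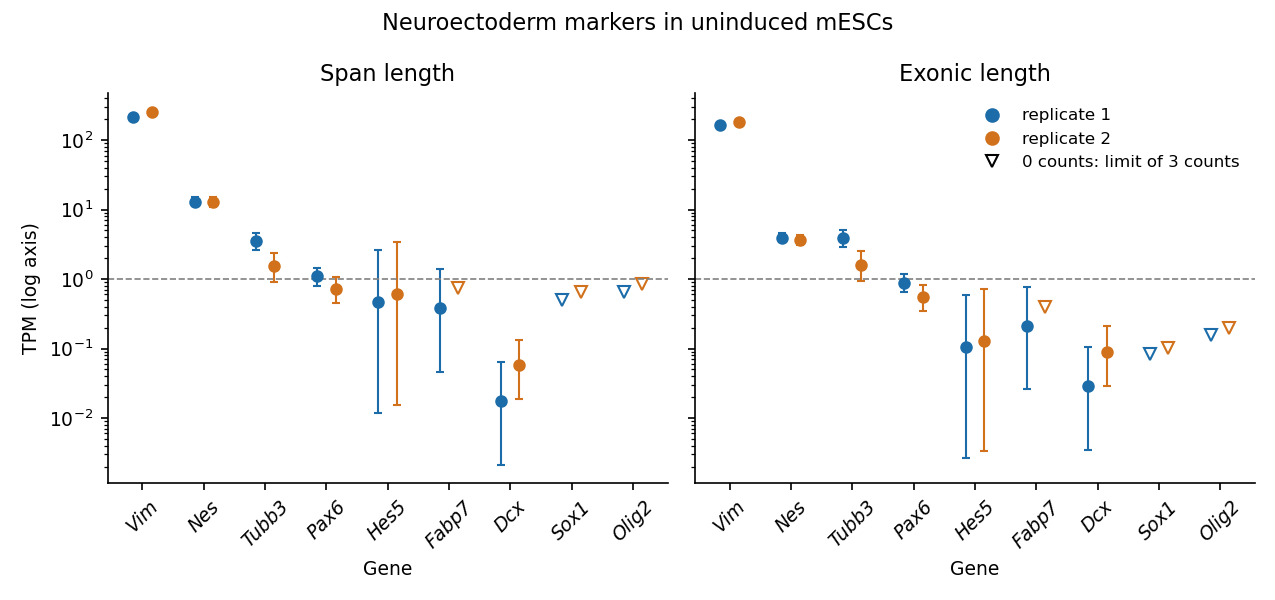
TPM of each neuroectoderm marker (log axis) in replicate 1 (blue) and replicate 2 (orange), with span length on the left and exonic length on the right. Bars are 95% exact Poisson intervals of the count, open triangles in the same colours show the level that 3 counts would give where the count was 0 (for Sox1 this limit does not apply), and the dashed line is 1 TPM. Vim stands above all others, and Nes and Tubb3 are the only other genes with both replicates above the line on each scale.

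Libraries totalled 23716499 counts in replicate 1 and 20275749 in replicate 2, so that a count of 0 allows up to 0.126 and 0.148 CPM. Such limits and all intervals given here cover counting error only. The cells carried the markers of their label. Of 13 ES cell markers, 12 reached 1 TPM, with a median of 150 TPM, and the exception was Sox2. Pou5f1, which encodes Oct4, had 1129 counts in replicate 1 and 142 in replicate 2. Replicate 2 held fewer counts from GC-rich genes than replicate 1. The SD of the log2 ratio between replicates over 9240 autosomal genes was 0.53, and 0.42 once a trend on GC content was removed.

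The promoter windows of the 9 genes were compared with their levels, since the genes share a lineage but differed widely in level. RefSeq windows (GRCm38.p6, 250 bases before the start to 50 after it) were found for all 9 and for 16595 genes of the table. The windows of Vim and Nes, the most counted markers, and of Olig2 and Fabp7, which had at most 2 counts, are shown 5′ to 3′ with each CpG dinucleotide in capitals. They lie on the plus strand at chr2:13574061-13574360, chr3:87970843-87971142, chr16:91225300-91225599 and chr10:57784673-57784972.
Vim: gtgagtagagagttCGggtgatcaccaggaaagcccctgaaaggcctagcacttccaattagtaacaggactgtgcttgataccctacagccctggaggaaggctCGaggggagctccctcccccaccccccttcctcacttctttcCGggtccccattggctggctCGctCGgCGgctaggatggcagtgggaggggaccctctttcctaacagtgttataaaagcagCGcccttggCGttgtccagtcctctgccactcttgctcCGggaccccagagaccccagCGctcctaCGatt
Nes: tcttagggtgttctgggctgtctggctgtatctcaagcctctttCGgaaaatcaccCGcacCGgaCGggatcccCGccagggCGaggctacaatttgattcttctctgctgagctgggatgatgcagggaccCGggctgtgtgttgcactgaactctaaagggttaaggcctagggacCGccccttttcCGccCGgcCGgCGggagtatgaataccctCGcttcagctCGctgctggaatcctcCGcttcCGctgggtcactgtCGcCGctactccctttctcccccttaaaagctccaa
Olig2: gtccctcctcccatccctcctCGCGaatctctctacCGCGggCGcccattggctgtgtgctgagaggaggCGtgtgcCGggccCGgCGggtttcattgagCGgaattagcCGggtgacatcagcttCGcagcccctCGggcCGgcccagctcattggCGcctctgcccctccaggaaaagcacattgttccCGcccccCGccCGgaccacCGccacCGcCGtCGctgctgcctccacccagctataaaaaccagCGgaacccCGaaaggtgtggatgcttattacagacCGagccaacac
Fabp7: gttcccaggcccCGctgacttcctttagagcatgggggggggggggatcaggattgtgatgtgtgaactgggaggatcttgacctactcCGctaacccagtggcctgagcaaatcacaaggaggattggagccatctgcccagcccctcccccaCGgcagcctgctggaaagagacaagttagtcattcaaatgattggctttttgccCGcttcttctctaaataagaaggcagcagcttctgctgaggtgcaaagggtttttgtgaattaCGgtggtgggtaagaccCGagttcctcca

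CpG number and level did not put the markers in the same order. Vim, the highest marker, had 11 CpGs, fewer than the median of 14 over all windows, and Olig2, with 0 counts, had 25. Nes and Pax6 each had 18, Tubb3 had 26, Sox1 had 37 and Hes5 had 41, a number that 4.50% of all windows reach. Fabp7 had 6 and Dcx had 3. Over all genes, 82.4% of those with 25 or more CpGs reached 1 TPM with span length, as did 78.9% of those with 15 to 24, 47.0% with 5 to 14 and 12.3% with 4 or fewer. Of the 4 markers with 25 or more CpGs, Tubb3 reached 1 TPM and Olig2 had 0 counts, while for Sox1, and for Hes5 on this scale, the threshold cannot be read, for reasons given with their counts. Nes reached it and Pax6 did not among the 2 genes with 15 to 24. These classes were set with the levels known, and no test was made over so few genes. The letters TATAAA, searched on both strands, occur in the windows of Vim, Olig2 and Dcx and in 12.8% of all windows. The letters GGGCGG occur in those of Nes, Tubb3, Sox1 and Olig2 and in 47.9% of all windows, and no motif match is evidence of binding.

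**Figure D2:**
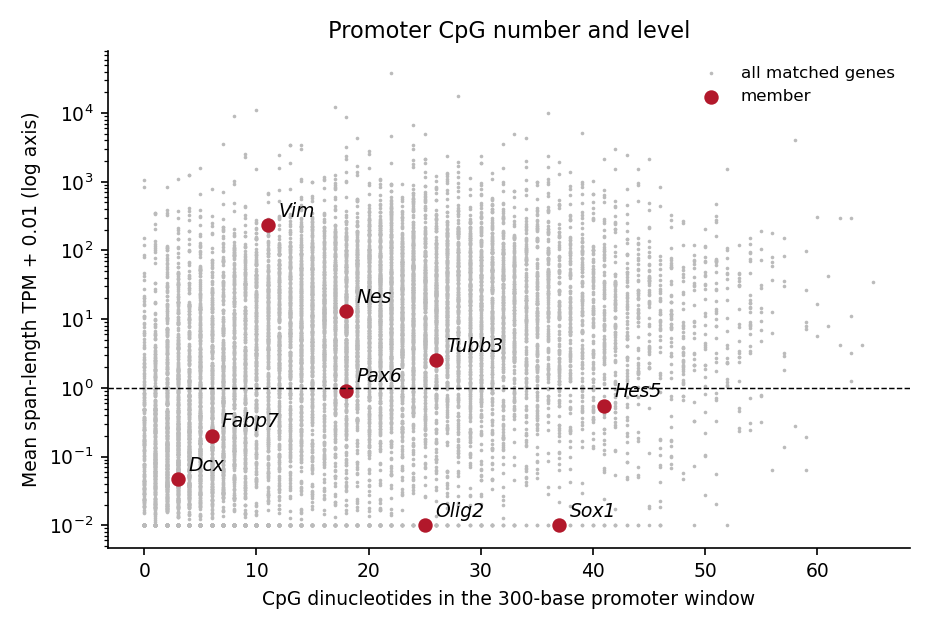
Number of CpG dinucleotides in the promoter window of each gene against its mean span-length TPM + 0.01 (log axis), with all matched genes in grey and the 9 neuroectoderm markers in red. The dashed line is 1 TPM. Vim is highest at 11 CpGs, and Tubb3 and Olig2, at 26 and 25 CpGs, lie on either side of the line. Hes5 rests on 1 count per replicate, and Sox1 is drawn at its count of 0 although its level cannot be read.

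Vim encodes the filament protein of mesenchymal cells and neural precursors. It lies on chromosome 2 from 13574310 to 13582826 (plus strand, mm10), with 9 exon blocks. It had 2709 counts in replicate 1 and 2414 in replicate 2. These are 214 and 251 TPM with span length (233 ± 25.8, SD, n = 2) and 164 and 182 TPM with exonic length (173 ± 12.6). Replicate 2 was the higher one on both scales, and 96.8% of all genes had a lower mean span-length level. No 50-base word of its longest transcript occurs in an annotated transcript of another gene. Its introns and copies outside the annotated transcripts were not searched.

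Because fibroblasts also make vimentin and feeder cells had been in the culture, 18 fibroblast markers were read beside it. Of these, 4 reached 1 TPM with span length (Fn1, Sparc, Twist1 and Thy1) and 6 with exonic length, when Col5a1 and Fbn1 joined them. Thy1, with 32 and 2 counts, was above 1 TPM in replicate 1 but not in replicate 2 on either scale. Their exonic-length levels summed to 204 TPM in replicate 1 and 171 TPM in replicate 2. Most of that sum was fibronectin (Fn1), with 7455 and 6096 counts, and Sparc, with 1411 and 612. Of the others, Fbn1 had 251 and 187 counts, Col5a1 had 128 and 71, and Twist1 had 111 and 95. Fewer than 10 counts in total were found for 8 of the 18, among them Col1a1 with 4 and 5, Col3a1 with 0 and 1, Dcn with 2 and 1 and Lum with 0 in both libraries, and Col1a2 had 9 and 4. The part of feeder cells in the level of Vim was not tested. Of 8 primitive endoderm markers, 2 reached 1 TPM with span length (Sox17 and Dab2) and 3 with exonic length (Dab2, Gata4 and Gata6). The exonic-length levels of all 8 summed to 16.7 TPM in replicate 1 and 16.2 TPM in replicate 2. Amn was at 0 counts.

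**Figure D3:**
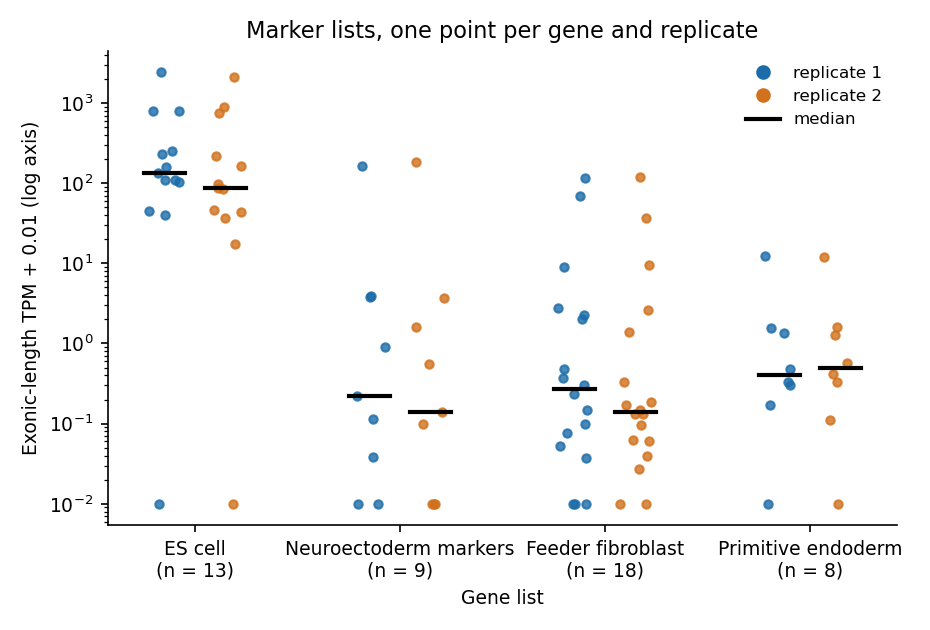
Exonic-length TPM + 0.01 (log axis) of each gene of 4 lists, with 1 point per gene and replicate (blue, replicate 1, and orange, replicate 2) and a black line at the median of each list in each replicate. ES cell markers lie mostly above 10 TPM, whereas most genes of the other 3 lists lie below 1 TPM, with Vim the highest of the neuroectoderm markers.

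Nes encodes nestin, the filament protein after which neural stem cells are usually recognised. It lies on chromosome 3 from 87971092 to 87980451 (plus strand) and has 4 exon blocks. It had 181 counts in replicate 1 and 136 in replicate 2. With span length it stood at 13.0 and 12.9 TPM (12.9 ± 0.125, SD, n = 2), and with exonic length at 3.93 and 3.67 TPM (3.80 ± 0.182). Of its 9360 bp, 6126 are exonic, against 2193 of 8517 bp for Vim. Vim exceeded Nes by 16.4 and 19.5 times with span length and by 41.8 and 49.6 times with exonic length in replicates 1 and 2. That difference was larger than the spread between replicates, and the Poisson intervals did not overlap.

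Tubb3 lies on chromosome 8 from 123411563 to 123422010 (plus strand). It had 54 counts in replicate 1 and 18 in replicate 2. These are 3.48 and 1.52 TPM with span length (2.50 ± 1.39, SD, n = 2) and 3.85 and 1.59 TPM with exonic length (2.72 ± 1.59). Replicate 1 was the higher one, and its Poisson interval did not overlap that of replicate 2. Nes exceeded Tubb3 within each replicate on both scales, by 3.74 and 8.43 times with span length and by 1.02 and 2.304 times with exonic length. With exonic length the ranges of the 2 genes over the replicates overlapped, so that their difference there was within the replicate spread.

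Pax6, a paired-box factor of the eye and dorsal forebrain, lies on chromosome 2 from 105668895 to 105697364 (plus strand). Replicate 1 held 46 counts of it and replicate 2 held 23, or 1.09 and 0.715 TPM with span length (0.902 ± 0.265, SD, n = 2) and 0.887 and 0.552 TPM with exonic length (0.719 ± 0.237). One replicate therefore lay above and the other below 1 TPM with span length. Tubb3 exceeded Pax6 in each replicate on both scales, although with span length the Poisson intervals overlapped in replicate 2. Pax6os1, on the opposite strand over 5.04% of the Pax6 span, was counted separately by strand and had 3 and 6 counts.

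Hes5, Fabp7 and Dcx were at the limit of the depth. Hes5 (chromosome 4, 154960922 to 154962371, plus strand) had 1 count in each replicate, or 0.465 and 0.610 TPM with span length. With span length 1 TPM would be 2.15 counts in replicate 1 and 1.64 in replicate 2, so this threshold cannot be read for Hes5 on that scale. With exonic length Hes5 stood at 0.105 and 0.130 TPM, with upper Poisson limits of 0.582 and 0.724 TPM, below 1 TPM in both replicates. Fabp7 (chromosome 10, 57784922 to 57788450, plus strand) had 2 counts in replicate 1 and 0 in replicate 2, where 0 allows up to 0.752 TPM with span length. Its upper Poisson limits in replicates 1 and 2 were 1.38 and 0.925 TPM with span length, so replicate 1 does not place Fabp7 below 1 TPM on that scale. With exonic length these limits were 0.769 and 0.488 TPM. Dcx, the only X-linked gene of the 9 (143855841 to 143933219, minus strand), had 2 and 5 counts, or 0.0174 and 0.0572 TPM with span length and 0.0288 and 0.0895 TPM with exonic length. Its span of 77379 bp makes Dcx the best bounded of the 3, with an upper Poisson limit of 0.133 TPM in replicate 2. The Poisson intervals of neighbours in the order Hes5, Fabp7 and Dcx overlapped in both replicates on both scales, so that this order is not resolved.

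Olig2 and Sox1 had 0 counts in both libraries, as did 21.1% of all genes, but the 2 zeros do not carry the same information. Olig2 (chromosome 16, 91225549 to 91228677, plus strand) overlaps no other gene of the table, and its 0 counts allow up to 0.646 TPM in replicate 1 and 0.849 TPM in replicate 2 with span length, taking 3 counts as the limit. The two-sided 95% Poisson limits are 0.795 and 1.04 TPM on that scale. Sox1 (chromosome 8, 12395518 to 12399555, plus strand) lies wholly inside Gm5607 (12385770 to 12436732) on the same strand. A fragment that falls in 2 genes of the same strand is assigned to neither under the options in the file header. In the table, 377 genes (1.67%) lie wholly inside another gene on their strand, and 98.4% of these had 0 counts in both libraries. No level of Sox1 can therefore be read here, and its limit of 3 counts does not apply. Gm5607 itself had 4 counts in replicate 1 and 0 in replicate 2. Sox2, the ES cell marker that was at 0, lies in the same way inside Sox2ot, which had 226 and 204 counts.

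The replicates were compared marker by marker by an exact binomial test (two-sided), in which the pair of counts was set against the library totals, with p adjusted by Benjamini-Hochberg over all 14536 genes with at least 10 counts. This test compares 2 libraries and not conditions. Of the 9 markers 4 could be tested, and 1 of them, Tubb3, differed, while 60.8% of all genes tested differed and 45.7% were lower in replicate 2. Tubb3 was 2.56 times lower in replicate 2, a log2 ratio of −1.36 (95% exact interval −2.22 to −0.57, adjusted p = 0.000747). Its transcript has 57.9% GC, a content at which the trend over autosomal genes gives a log2 ratio of −0.77. Tested against that trend, Tubb3 no longer passed (adjusted p = 0.23, exact binomial).

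For Vim the log2 ratio of replicate 2 over replicate 1 was 0.06 (95% exact interval −0.02 to 0.14) and did not pass the test (adjusted p = 0.197, exact binomial). Nes had a log2 ratio of −0.19 (−0.52 to 0.14, adjusted p = 0.334, exact binomial) and Pax6 of −0.77 (−1.56 to −0.02, adjusted p = 0.0633, exact binomial). Vim and Nes also depended on the expected ratio. Against the GC trend, under which 45.6% of all genes differed (24.0% higher and 21.6% lower in replicate 2), both were higher in replicate 2, by a log2 of 0.26 for Vim (adjusted p = 5.19e-10, exact binomial) and 0.54 for Nes (adjusted p = 0.00387, exact binomial). With TMM factors, which move every log2 ratio by the same amount, Vim was higher in replicate 2 (log2 0.32, adjusted p = 3.14e-14, exact binomial) and the sign of Nes turned, while 57.7% of all genes differed (28.8% higher and 28.9% lower in replicate 2). DESeq2 size factors gave the same 2 calls, Tubb3 and Vim, as TMM factors, and 57.8% of all genes differed (31.6% higher and 26.1% lower).

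**Figure D4:**
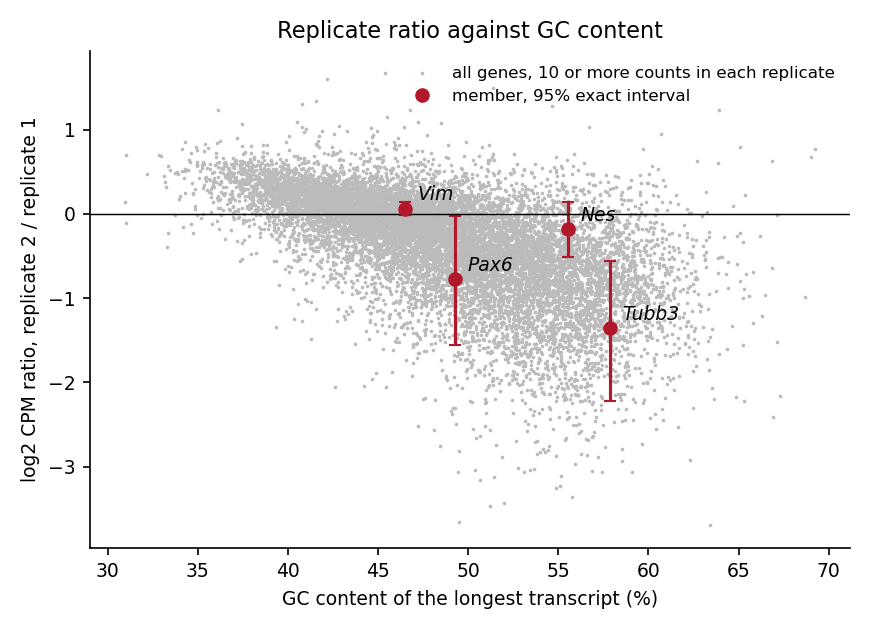
Log2 CPM ratio of replicate 2 over replicate 1 against the GC content of the longest transcript, for genes that had 10 counts or more in both libraries (grey) and for the 4 markers that could be tested (red, with 95% exact intervals). The grey cloud falls with GC content, and Tubb3, at 57.9% GC, is the only marker whose adjusted p passed the threshold in the test against library totals.

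Each marker was then set beside its gene family, on the exonic-length scale. Among 14 intermediate filament genes Vim was the second highest and Nes ranked 5. Lmnb1, a nuclear lamin found in most cells, was the highest at 308 ± 4.22 TPM (SD, n = 2), and exceeded Vim by 1.89 and 1.68 times in replicates 1 and 2. With span length Vim ranked first and Lmnb1 stood at 98.3 and 102 TPM, so their order depended on the length. The neuronal filament genes Nefl, at 6.59 ± 0.302 TPM, and Ina, at 2.36 ± 0.378 TPM, lay near Nes, as did Synm (synemin) at 3.84 ± 0.143 TPM. Gfap, the filament gene of astrocytes, had 4 and 0 counts.

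Among 8 beta-tubulin genes Tubb3 ranked 6, above Tubb1 and Tubb4a, which had 0 counts in both libraries. Tubb5, the beta-tubulin of dividing cells, was the highest with 12841 and 5936 counts, and exceeded Tubb3 by 168 and 233 times with exonic length. Tubb2b, Tubb4b, Tubb6 and Tubb2a followed. The levels of Tubb4b, Tubb2a and Tubb2b are uncertain, because 50.9%, 49.6% and 39.3% of the 50-base words of their transcripts occur in other genes, while no such word was found for Tubb3. Of the 7 other beta-tubulin genes 5 were tested between the replicates, and 4 of these were lower in replicate 2 (Tubb5, Tubb2b, Tubb4b and Tubb6), beside 45.7% of all genes tested. Against the GC trend Tubb6 no longer differed, and Tubb2a was higher in replicate 2 there and with TMM or DESeq2 factors.

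Hes5 and Fabp7 each had relatives at far higher levels. Hes1, the member of the Hes family that mESCs are known to use, had 1091 and 1140 counts (114 ± 20.9 TPM, SD, n = 2, exonic length), and Hey1 followed at 5.68 ± 0.118 TPM, while Hes5 had 1 count in each replicate. Fabp3, the fatty acid binding protein of heart muscle, had 2882 and 1373 counts and Fabp5 had 207 and 121, against 2 and 0 for Fabp7. The value of Fabp3 is uncertain, as 29.2% of its words occur in other genes. Among 11 other genes of the Olig and proneural group, 3 reached 1 TPM with span length (52.7% of all genes) and 2 with exonic length (55.3%). Neurod1, with 72 and 80 counts, was the highest, and Olig3 passed with span length on only 7 and 2 counts. Neurog1 and Neurod2 had 0 counts like Olig2.

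**Figure D5:**
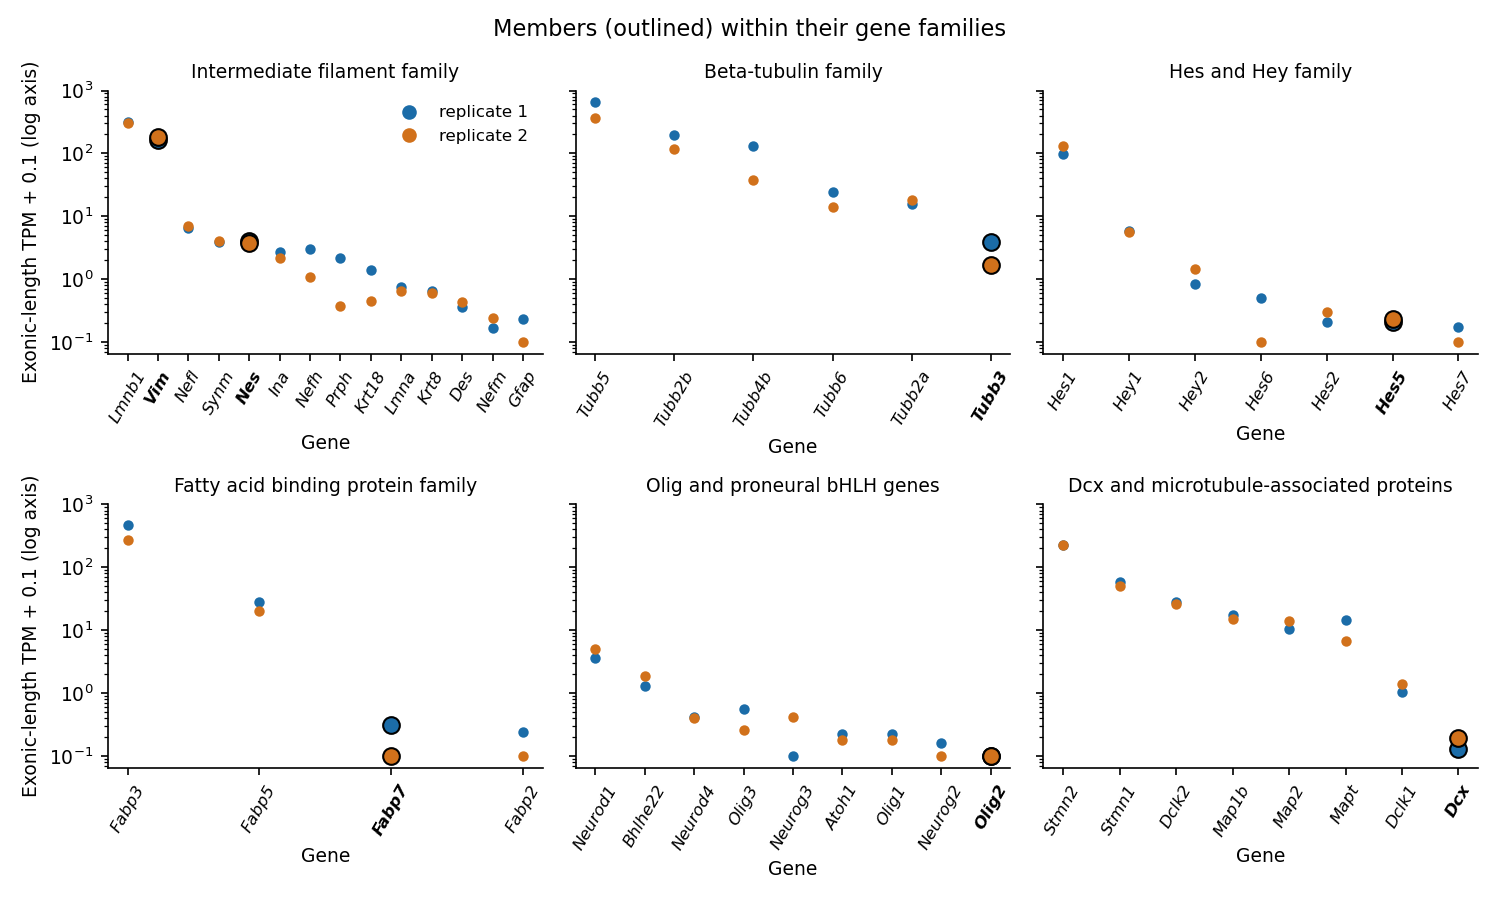
Exonic-length TPM + 0.1 (log axis) of the genes of 6 families in replicate 1 (blue) and replicate 2 (orange), with neuroectoderm markers outlined and in bold and other genes at 0 counts in both replicates not drawn. Vim lies near the top of its family, whereas Tubb3, Hes5, Fabp7, Olig2 and Dcx lie below relatives such as Tubb5, Hes1, Fabp3, Neurod1 and Stmn2.

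Dcx was the lowest of 8 genes of microtubule-binding proteins, and its 7 relatives each reached 1 TPM with exonic length (55.3% of all genes). With span length 6 of the 7 did (52.7% of all genes), and the exception was Dclk1 at 0.273 TPM. Stmn2, a regulator of microtubules in growing axons, was the highest at 224 ± 1.20 TPM (SD, n = 2), with 3507 and 2799 counts. It exceeded Vim on this scale, but with span length it stood at 46.5 ± 1.53 TPM, below Vim. Stmn1 stood at 53.9 ± 6.08 TPM, Dclk2 at 26.9 ± 1.10 TPM and Map1b at 16.2 ± 1.73 TPM. For Stmn1, 36.5% of the words occur in other genes. Dclk1, a kinase with the same microtubule-binding domains as Dcx, had 98 and 108 counts against 2 and 5 for Dcx.

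Pax6 ranked 8 of 21 neural plate and regional factors with exonic length and 11 with span length. Otx2, at 161 ± 7.61 TPM (SD, n = 2), Zic2, at 71.0 ± 15.8 TPM, and Hesx1, at 20.3 ± 6.16 TPM, were among those above it, and these 3 are also known from pluripotent cells. Six3, Emx2, Nkx2-2 and Nkx6-1, which mark regions of the neural tube, had 0 counts in both libraries. Of the Sox genes related to Sox1, 5 of 7 reached 1 TPM with span length (52.7% of all genes) and 3 with exonic length (55.3%). Sox3 passed with span length on only 4 and 2 counts, and Sox2 is counted at 0 although its level cannot be read. The list was led by Sox4, at 12.5 ± 5.35 TPM, and Sox11, at 12.2 ± 2.17 TPM, with exonic length.

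Taking all 99 other genes of the 10 family and neural lists, 53 reached 1 TPM with span length, near the 52.7% of all genes. Their median was 1.13 TPM. Of 12 markers of radial glia and neural stem cells, 5 reached 1 TPM with span length, but 8 did so with exonic length (55.3% of all genes) and 8 reached 1 CPM. The highest was Glul, glutamine synthetase, at 133 ± 6.64 TPM with span length and 89.3 ± 1.05 TPM with exonic length (SD, n = 2), of whose words 14.2% occur in other genes. Slc1a3, a glutamate transporter, stood at 17.6 ± 0.445 TPM with span length and 58.7 ± 0.765 TPM with exonic length. Of 9 neuron markers 7 reached 1 TPM with span length and 8 with exonic length. Tuba1a was the highest of them, at 324 ± 48.5 TPM with span length and 127 ± 23.7 TPM with exonic length, values made uncertain by the 72.9% of its words found in other genes. Gap43, a membrane protein of growing neurites, stood at 2.84 ± 0.144 TPM with span length and 35.3 ± 0.432 TPM with exonic length. Ncam1, a cell adhesion molecule, stood at 4.39 ± 0.183 TPM with span length and 35.5 ± 0.122 TPM with exonic length. Of the 99 genes 63 could be tested between replicates, of which 11 were higher and 25 lower in replicate 2, beside 15.1% and 45.7% of all genes tested. This balance turned with the expected ratio, and the shares over all genes moved too. With TMM factors 22 were higher and 12 lower (28.8% and 28.9% of all genes). The numbers were 27 and 12 with DESeq2 size factors (31.6% and 26.1%) and 22 and 11 against the GC trend (24.0% and 21.6%). No direction between the replicates can therefore be read from this balance, and a difference between these genes and all genes was not tested.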

How the data were processed

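Gene-level fragment counts were used as deposited. Per the file headers, the authors counted with featureCounts (version 1.5.2), reverse-stranded, over whole transcript spans on mm10. The submitters' processing notes also name STAR (2.4.2a) and Bowtie2 (2.3.2), without saying which was used for these libraries. Count columns were matched to samples by name, apart from a letter b in the labels. The members and gene lists were chosen with earlier results of these data known.

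TPM used the deposited length (spans with introns), and alternatively the exon union of GENCODE M21 basic (98.1% of genes matched) or no length (CPM). Replicates were averaged. Depth was 23716499 and 20275749 counts. Poisson and Clopper-Pearson intervals (95%) cover counting error. Replicates were compared by exact binomial tests (scipy 1.17.1), checked on simulated data, with adjusted p at 0.05. Log2 ratios used in the alternatives add 0.5 counts. Alternatives were TMM factors (edgeR 4.0.16), DESeq2 size factors (1.42.0), a cubic GC trend and count minima. Named genes are the members, genes that overlap them on their strand, and list genes at or above 1 TPM, of which the highest 4 were preferred. Some genes are not reported here. Other genes at 0 counts, genes at low counts and family neighbours were named after their values were seen. Starts of plus-strand genes in the table lie 1 base before those of RefSeq (82.0% of matched genes) and are printed as deposited.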

Additional observations from a re-analysis of the deposited data

How the results depend on the processing

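No paired analysis was possible because only 1 group was analysed. Of 77 alternative values over 17 results, 55 kept their call or stayed within the measure set for the result. For marker levels and their median that measure was the SD of the 2 replicates. Each single replicate lay within it by construction, and a marker at 0 counts could not move. Part of the 55 was thus fixed in advance and shows no robustness. At 0.1 TPM 6 of the 9 markers passed (69.0% of all genes), in place of 3, with Hes5 and Fabp7 among them at less than 1 count per 0.1 TPM. At 5 TPM 33 of the 99 other neural genes passed (37.1% of all genes), in place of 53. The median of the markers was 0.117 TPM with exonic length and 0.165 CPM without a length, in place of 0.538 TPM. The number of markers that differed between the replicates was 2 with TMM factors, with DESeq2 size factors and with the GC trend, in place of 1. These were Tubb3 and Vim with both sets of factors and Vim and Nes with the GC trend. For Nes the log2 ratio turned from −0.18 (with 0.5 counts added) to 0.071 under TMM, 0.13 with DESeq2 size factors and 0.54 with the GC trend. From single replicates the markers at 1 TPM numbered 3 to 4 (Pax6 joined in replicate 1), the other neural genes 48 to 52, and the median ran from 0.465 to 0.610 TPM. Depth limits Hes5, Fabp7, Dcx and Olig2, which had 7 counts or fewer in both libraries together.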
